A study of Mus musculus with 30 samples.

Results

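Prevotellaceae, a family of the order Bacteroidales, were followed in the stool of female mice that lack Gpr15l (Gpr15l-/-, here KO) and of female wild-type (WT) mice. The members are all sequence variants of the 16S rRNA gene that the authors' classification placed in this family, taken by taxon name and not by their values. The family had 61 of the 3697 rows of the count table. Of these, 50 rows had no reads in the 30 libraries, among them all rows named Prevotella (7 rows), Segatella (5 rows), Incertae_Sedis (9 rows) and the NK3B31 group (1 row). The other 11 rows are the members described here, of 949 bacterial variants with reads. They belong to g__Prevotellaceae_UCG-001 (8 variants) and g__Alloprevotella (3 variants).

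Prevotellaceae are anaerobes that break down plant and other complex polysaccharides and ferment them mainly to acetate and succinate. Prevotellaceae UCG-001 is a genus-level group known mostly from its 16S sequences, and Alloprevotella is a genus of sugar-fermenting anaerobes. The Gpr15l product is a peptide that epithelia of skin and gut secrete and that binds GPR15, a receptor on lymphocytes. Mice eat faeces, so cage mates pass gut bacteria to each other.

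Part of the 16S rRNA gene (V4) was amplified from stool DNA and sequenced, and each group held 5 libraries. Groups were KO and WT mice at weaning (about 4 weeks of age; libraries 1 to 5 KO, 6 to 10 WT), after 4 to 5 weeks in cages that mixed both genotypes (libraries 11 to 15 KO, 16 to 20 WT), and after 6 further weeks apart (libraries 21 to 25 KO, 26 to 30 WT). The comparisons ask how far KO and WT mice differ before sharing cages, while sharing them and once parted again. The labels do not tell how the mutant allele was made, nor which mice shared a dam, a litter or a cage, nor which libraries of different times came from the same mouse. Litter or cage and genotype therefore cannot be told apart at weaning, nor can age and co-housing afterwards. The spread behind each p-value is the one among these libraries, which may be partly technical.

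Libraries held 10491 to 52364 bacterial reads at weaning and after co-housing and 39703 to 73588 after re-separation. The 20 weaning and co-housing libraries shared 0 variants with the 10 re-separation libraries, so 7 members (rows 22, 24, 25, 26, 27, 38 and 493) belong to the first set and 4 (rows 615, 623, 624 and 627) to the second, and the library set changes together with the last time. Genera can be compared across the sets by name, and single variants cannot. Library 1 stood apart from its group, with a mean Bray-Curtis distance (0 for equal, 1 for no shared composition) of 0.749 to the other KO weaning libraries. Libraries 5, 11 and 19 were the farthest from their groups among the rest, at 0.606, 0.547 and 0.543. Results that rest on these 4 are given with and without them. Library 12, at 0.535, was kept. The distance counts the Prevotellaceae reads, and libraries 11 and 19 held the highest family shares of their groups. Leaving them out lowers the co-housed means by construction, so p-values without them are not support for a change.

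Shares below are percent of bacterial reads in a library, so a share can move because other bacteria moved. The counting error (95% Wilson interval) on a share was at most 0.729 percentage points either way for the family, below the spread between mice in each group. Differences were tested with edgeR's quasi-likelihood test on the counts, adjusted by Benjamini-Hochberg over all variants, genera or families tested, with a threshold of 0.05. A log2 fold change, relative to the scaling factors of the libraries, is given ± an approximate standard error. This is its size divided by the square root of the test's F value, and it is rough where a group has few or no reads.

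Prevotellaceae were among the most abundant bacteria of these mice. The family was the most abundant family in 9 of 30 libraries, Prevotellaceae UCG-001 the most abundant genus in 10, and its leading variant (row 22 or row 615) the most abundant variant in 20. UCG-001 held most of the family's reads. Alloprevotella held between 0.116% and 15.1% of them, and did not exceed 4.59% of bacterial reads in any of the 30 libraries.

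At weaning the family made up 16.3%, 24.6%, 33.1%, 29.4% and 13.7% of bacterial reads in KO libraries, against 34.9%, 31.8%, 32.3%, 29.8% and 38.7% in WT libraries. The WT libraries lay close together, and the KO libraries spread downwards, with only library 3 inside the WT range. The means were 23.4% ± 8.32 in KO and 33.5% ± 3.43 in WT (SD, n = 5 each). The family did not pass edgeR's test (log2 fold change -1.11 ± 0.50, unadjusted p = 0.0325, adjusted p = 0.0813), where 22.9% of the 35 families tested passed. The size of this value depended on the processing, and the smallest fall among the alternatives was -0.52. An exact two-sided permutation test of the share itself, chosen after the data were seen, gave a difference of -10.1 percentage points and an unadjusted p = 0.0476, with 0.00794 the smallest p that 5 against 5 libraries allow.

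After co-housing the family held 30.9%, 6.65%, 7.81%, 16.7% and 10.5% in KO libraries, against 13.6%, 12.9%, 17.6%, 25.7% and 12.8% in WT libraries. The groups overlapped, with library 11 (KO) and library 19 (WT) highest. The means were 14.5% ± 9.94 in KO and 16.5% ± 5.50 in WT (SD, n = 5 each), and the log2 fold change was -0.29 ± 0.49 (edgeR, adjusted p = 0.818). After re-separation the shares were 22.7%, 19.7%, 16.4%, 18.3% and 12.9% in KO libraries, against 24.2%, 33.6%, 17.5%, 14.0% and 26.7% in WT libraries. The means were 18.0% ± 3.67 in KO and 23.2% ± 7.72 in WT (SD, n = 5 each), with overlapping ranges and a log2 fold change of -0.21 ± 0.49 (edgeR, adjusted p = 0.874). At both times edgeR called 0% of the 35 families, with 1 family each at an unadjusted p under 0.05, which was not Prevotellaceae. DESeq2 called 0 families at either time, and limma-voom called 1 after co-housing and 0 after re-separation. The exact permutation test of the share gave -2.01 percentage points after co-housing (p = 0.675) and -5.21 after re-separation (p = 0.214).

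**Figure D1:**
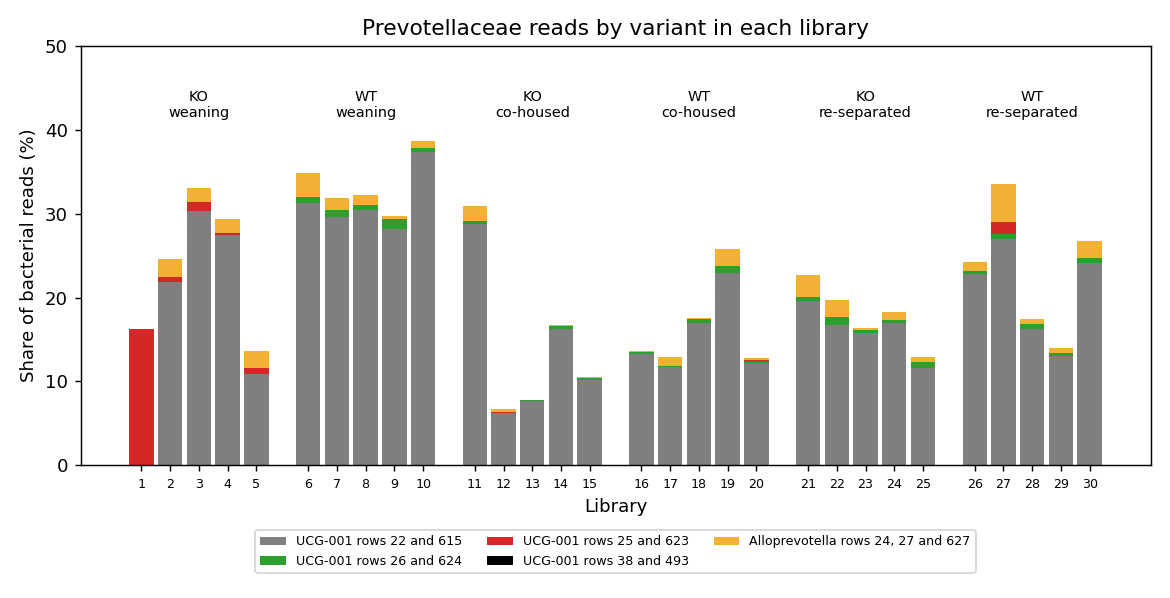
Share of bacterial reads (percent, vertical axis) held by Prevotellaceae in each of the 30 libraries, stacked by variant and grouped by genotype and time, with KO left of WT. The leading UCG-001 variant fills most of each bar, except in KO weaning library 1, where row 25 holds 16.2% of bacterial reads.

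Prevotellaceae UCG-001 carried the family's pattern. Its share at weaning was 16.2%, 22.4%, 31.3%, 27.7% and 11.6% in KO libraries, against 32.0%, 30.4%, 31.1%, 29.3% and 37.8% in WT libraries. Of the 5 KO libraries only library 3 reached the WT range. The log2 fold change was -1.25 ± 0.53 and missed the threshold (edgeR, adjusted p = 0.0721). Neither Prevotellaceae genus was called at weaning, where 23.6% of the 72 genera tested were called, and UCG-001 alone had an unadjusted p under 0.05. UCG-001 was called by limma-voom (-1.43, adjusted p = 0.0328) and by edgeR without library 4 (-1.75, adjusted p = 0.0127), and its log2 fold change lay between -1.75 and -0.55 over all alternatives. With library size in place of the scaling factors the median of all genera at weaning moved by 0.43.

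After co-housing UCG-001 held 29.1%, 6.33%, 7.76%, 16.6% and 10.5% in KO libraries, against 13.5%, 11.9%, 17.5%, 23.8% and 12.5% in WT libraries. Both groups ranged widely and overlapped, with a log2 fold change of -0.35 ± 0.53 (edgeR, adjusted p = 0.916). Of all genera 1.39% were called between KO and WT at that time, and neither Prevotellaceae genus was among them by edgeR, DESeq2 or limma-voom, nor at an unadjusted p under 0.05.

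After re-separation UCG-001 held 20.0%, 17.6%, 16.2%, 17.3% and 12.3% in KO libraries, against 23.2%, 29.0%, 16.8%, 13.4% and 24.7% in WT libraries. The 3 highest shares were WT libraries and the lowest was KO library 25, and the ranges overlapped (log2 fold change -0.10 ± 0.53, edgeR, adjusted p = 0.986). No genus was called (0% of 72) by edgeR after re-separation, with 5 genera at an unadjusted p under 0.05, none of them Prevotellaceae. DESeq2 called 0 genera and limma-voom 1 at that time.

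Over time UCG-001 fell in WT mice. It averaged 15.8% ± 4.96 in co-housed WT and 32.1% ± 3.31 in weaning WT (SD, n = 5 each), with no overlap between the libraries of the 2 times. The order Bacteroidales as a whole, UCG-001 included, made up 25.6% to 66.4% of reads in co-housed WT libraries and 69.5% to 85.3% in weaning WT libraries, and its part in the change of UCG-001 was not tested. The log2 fold change of co-housing against weaning was -1.82 ± 0.54 in WT (edgeR, adjusted p = 0.0115), and 29.2% of the 72 genera were called in that comparison. It was called in all 18 alternatives, between -2.24 and -1.02. The value depends on the scaling: with library size in place of the scaling factors the median of all genera moved by 0.80 and UCG-001 gave -1.02, the smallest change among the alternatives. The family fell likewise in WT (-1.85 ± 0.51, edgeR, adjusted p = 0.00593), where 37.1% of the 35 families were called.

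In KO mice UCG-001 averaged 14.1% ± 9.31 after co-housing and 21.9% ± 8.08 at weaning (SD, n = 5 each). The libraries of the 2 times overlapped and the change was not called (-0.92 ± 0.53, edgeR, adjusted p = 0.167), beside 31.9% of genera called. Without libraries 1, 5, 11 and 19 the change was -1.71 (adjusted p = 0.00505). Libraries 1 and 5 held the lowest UCG-001 shares at weaning in KO, and library 11 the highest after co-housing. A larger fall without them follows by construction. The family gave -1.03 ± 0.50 in KO (edgeR, adjusted p = 0.106; 22.9% of families called) and was called by DESeq2 (-1.19, adjusted p = 0.0456) and limma-voom (-1.34, adjusted p = 0.0352) on all libraries. With edgeR it was also called without library 11 (-1.79, adjusted p = 0.00358) and without libraries 1, 5, 11 and 19 (-2.05, adjusted p = 0.000775). The test of the difference between the KO and the WT change did not pass for UCG-001 (interaction 0.90 ± 0.74, edgeR, adjusted p = 0.462), nor for Alloprevotella (-0.65 ± 1.31, edgeR, adjusted p = 0.932), where 4.17% of genera were called.

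Re-separated KO mice averaged 16.7% ± 2.81 UCG-001 and re-separated WT mice 21.4% ± 6.26 (SD, n = 5 each). Against co-housing the log2 fold change was 0.88 ± 0.53 in KO (edgeR, adjusted p = 0.242; 19.4% of genera called) and 0.63 ± 0.53 in WT (edgeR, adjusted p = 0.522; 1.39% of genera called). The KO value was 1.21 (adjusted p = 0.0317) without libraries 1, 5, 11 and 19. Against weaning it was -0.05 ± 0.53 in KO (edgeR, adjusted p = 1; 27.8% of genera called) and -1.20 ± 0.53 in WT (edgeR, adjusted p = 0.110; 12.5% of genera called). In WT, UCG-001 passed when only the 2 groups compared entered the fit (-1.12, adjusted p = 0.0189).

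**Figure D2:**
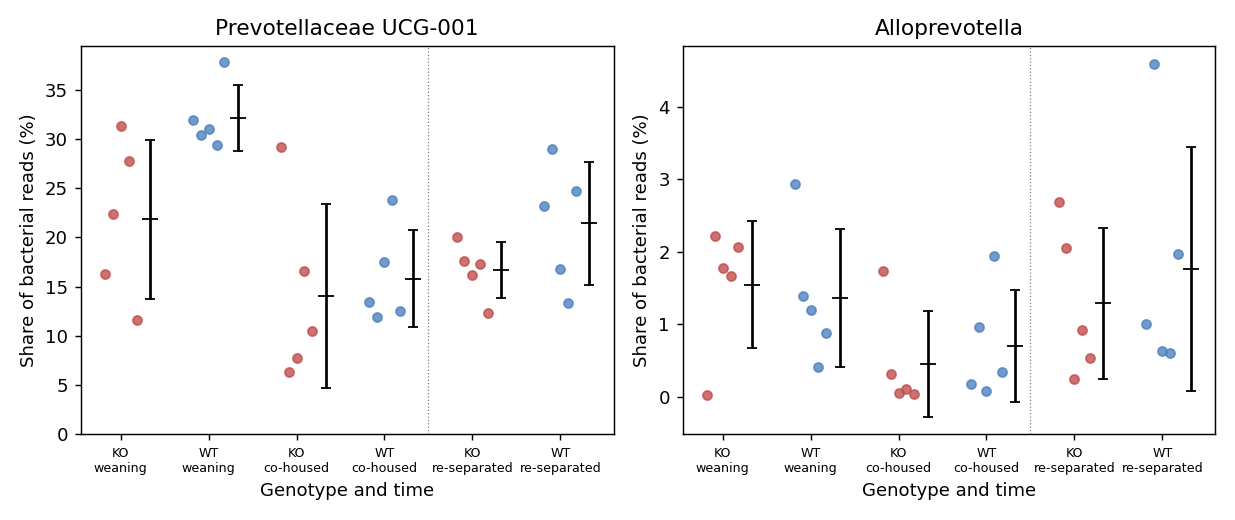
Share of bacterial reads (percent) of Prevotellaceae UCG-001 and Alloprevotella in KO and WT mice at the 3 times; points are libraries bars the mean ± SD (n = 5 per group), and the dotted line parts the library sets. WT weaning libraries of UCG-001 lie between 29.3% and 37.8%, above all 5 co-housed WT libraries, and the KO and WT libraries of Alloprevotella overlap at each time.

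Alloprevotella was low and uneven. At weaning it held 0.0189%, 2.21%, 1.77%, 1.67% and 2.07% in KO libraries, against 2.93%, 1.39%, 1.19%, 0.405% and 0.876% in WT libraries. Apart from library 1, the KO libraries lay within the WT range, and the log2 fold change was -0.40 ± 0.94 (edgeR, adjusted p = 0.819). The mean share was higher in KO (1.55% against 1.36%), and with library size as the scaling the log2 fold change was 0.19. Its sign thus depended on the scaling. After co-housing Alloprevotella held 1.73%, 0.317%, 0.0486%, 0.111% and 0.0357% in KO libraries, against 0.180%, 0.958%, 0.0762%, 1.94% and 0.340% in WT libraries. One library in each genotype, 11 and 19, stood well above the others, and the log2 fold change was -1.05 ± 0.94 (edgeR, adjusted p = 0.730).

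After re-separation Alloprevotella held 2.69%, 2.04%, 0.240%, 0.925% and 0.540% in KO libraries, against 0.997%, 4.59%, 0.631%, 0.596% and 1.97% in WT libraries. The groups overlapped almost fully, with a log2 fold change of -0.08 ± 0.93 (edgeR, adjusted p = 0.999).

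Whether Alloprevotella passed the threshold between times depended on single libraries and, in KO, on the filter. Co-housed against weaning KO mice gave -2.13 ± 0.97 (edgeR, adjusted p = 0.0858), -3.80 without library 11 (adjusted p = 0.00408) and -2.20 with all libraries and no filter on low counts (adjusted p = 0.0345). Re-separated against co-housed KO mice gave 2.36 ± 0.98 (edgeR, adjusted p = 0.0811), 4.00 without library 11 (adjusted p = 0.00996) and 2.45 with all libraries and no filter (adjusted p = 0.0263). In WT, co-housing against weaning gave -1.48 ± 0.95 (edgeR, adjusted p = 0.206), and -2.77 without library 19 (adjusted p = 0.0280). Without libraries 1, 5, 11 and 19 all 3 of these changes passed, at -4.25 (adjusted p = 0.000591), 4.01 (adjusted p = 0.00128) and -2.77 (adjusted p = 0.00687). Re-separated against co-housed WT mice gave 1.39 ± 0.95 (edgeR, adjusted p = 0.521), and likewise passed without these libraries, at 2.69 (adjusted p = 0.0250). In libraries 11 and 19 both genera were the highest of their group, so leaving these libraries out lowers the co-housed means by construction. Bacteroidales as a whole made up 45.6% of reads in library 11, against 16.9% to 38.8% in the other co-housed KO libraries, and 66.4% in library 19, against 25.6% to 34.1% in the other co-housed WT libraries. The part of this in the result was not tested.

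Within UCG-001 the genotypes differed at weaning in which minor variants they carried. The leading variant was shared, and 2 rarer variants were split by genotype: row 25 was found in all 5 KO libraries and in 0 of 5 WT libraries, and row 26 in all 5 WT libraries and in 0 of 5 KO libraries. How many of all variants were split in this way was not counted, so such splits may be common. Of 7 members of the weaning and co-housing set, 4 passed the filter (at least 10 reads in at least 3 libraries), and 2 of these 4 were called between KO and WT at weaning, 1 higher and 1 lower in KO. Of all 292 variants tested, 20.9% were called, 20 higher and 41 lower in KO. Variants may be strains, species or gene copies of one genome, and the table gives no sequences, so they are named by row number.

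Row 25, labelled uncultured_bacterium, made up 16.2%, 0.514%, 0.999%, 0.230% and 0.677% of bacterial reads in KO weaning libraries (3431, 175, 170, 76 and 71 reads). In the 5 WT weaning libraries it had 0 reads, which allows at most 0.00573% to 0.0192%. Library 1 was far above the other KO libraries, yet each of the 5 lay above every WT limit. Against a floor of 3 reads per library the mean was at least 309-fold higher in KO (edgeR, adjusted p = 0.000493). Without library 1 it was at least 50.03-fold higher (edgeR, adjusted p = 0.0135).

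Row 26, labelled uncultured_Bacteroidales, had 0 reads in the 5 KO weaning libraries, which allows at most 0.0088% to 0.0286%. In WT weaning libraries it made up 0.643%, 0.817%, 0.680%, 1.20% and 0.471%. No WT library came near the KO limits, and the mean was at least 48.7-fold lower in KO. The log2 fold change was -7.00 ± 1.35 (edgeR, adjusted p = 0.000493). The smallest Prevotellaceae count above 0 was 2 and the whole table held 5 counts of 1, so if low counts were removed before deposit a 0 may hide more than 3 reads and these bounds would be too high.

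The leading variant, row 22, made up 0%, 21.9%, 30.3%, 27.5% and 10.9% in KO weaning libraries, against 31.3%, 29.6%, 30.4%, 28.1% and 37.3% in WT. It had no read in library 1, which allows at most 0.0142%, while that library's UCG-001 share was made up by row 25. Its log2 fold change was -1.19 ± 0.95 (edgeR, adjusted p = 0.397). Row 27, the Alloprevotella variant that held nearly all reads of its genus in this set, gave -0.22 ± 1.23 at weaning (edgeR, adjusted p = 1).

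After co-housing the split was no longer seen. Row 25 had 8, 7, 5, 0 and 0 reads in KO libraries (0.0314%, 0.0435%, 0.0122% and 0 in the other 2), against 0 in 4 WT libraries and 7 reads (0.0203%) in WT library 20. Each share lay below the lowest KO share at weaning, and the log2 fold change between KO and WT was 1.06 ± 0.87 (edgeR, adjusted p = 0.932). Row 26 made up 0.342%, 0%, 0.0292%, 0.372% and 0.305% in KO libraries, against 0.231%, 0.197%, 0.510%, 0.825% and 0.241% in WT libraries. It was thus found in 4 of 5 co-housed KO libraries, 3 of them within the WT range (log2 fold change -1.02 ± 1.36, edgeR, adjusted p = 0.985). Neither these 2 nor the other 2 tested variants were called between KO and WT after co-housing by edgeR, where 1.03% of all variants were called, nor by limma-voom, and none had an unadjusted edgeR p under 0.05. DESeq2 called none of rows 22, 26 and 27 and gave no adjusted p for row 25.

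Row 22 held 28.7%, 6.29%, 7.72%, 16.3% and 10.1% in co-housed KO libraries, against 13.2%, 11.7%, 17.0%, 22.9% and 12.2% in co-housed WT libraries. The groups overlapped (log2 fold change -0.12 ± 0.93, edgeR, adjusted p = 0.985). Row 27 gave -0.66 ± 1.23 (edgeR, adjusted p = 0.985).

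**Figure D3:**
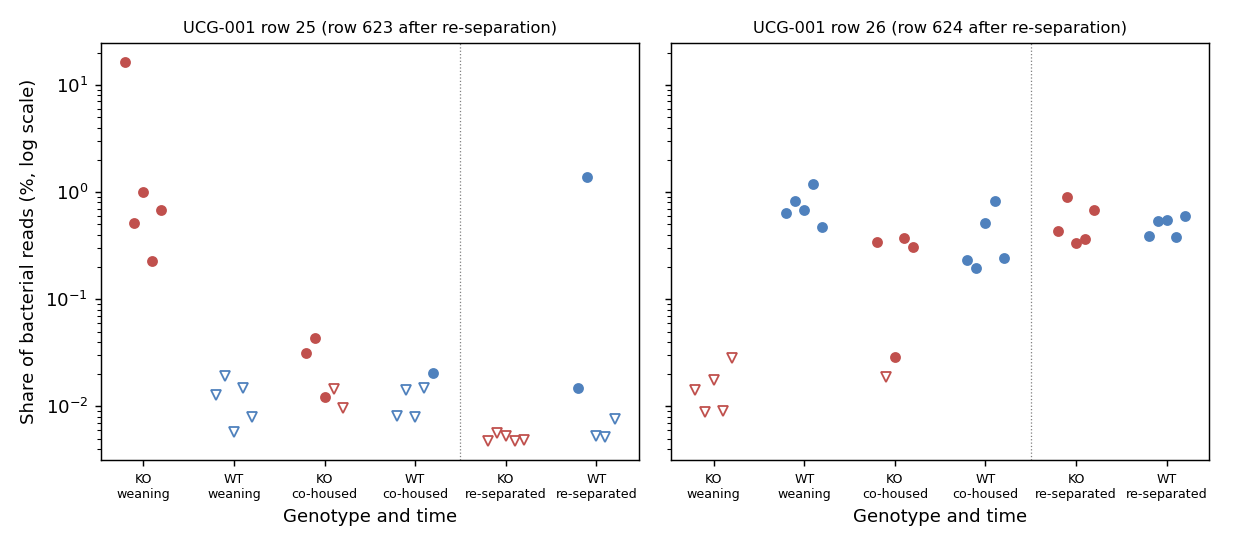
Share of bacterial reads (percent, log axis) of minor UCG-001 variants in each library, KO left of WT at each time. Panels show rows 25 and 26, with rows 623 and 624 in their place after re-separation. Open triangles are libraries with 0 reads drawn at the limit of 3 reads. The dotted line parts the library sets, which share no variants. Row 25 is above 0.2% in all KO weaning libraries and at 0 in all WT weaning libraries, while row 26 shows the opposite and is found in 4 of 5 KO libraries after co-housing.

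Within the KO mice both minor variants moved between weaning and co-housing, in opposite directions. Row 26 was at least 13.4-fold higher in co-housed than in weaning KO mice. This bound stayed between 10.8 and 16.7 when 1 library was left out. The log2 fold change of row 26 was 4.77 ± 1.07 (edgeR, adjusted p = 0.00344), and it was called in all 18 alternatives. Row 25 had a log2 fold change of -6.74 ± 1.77 (edgeR, adjusted p = 0.0102), which was -4.41 without library 1 (adjusted p = 0.0855) and -4.75 without libraries 1, 5, 11 and 19 (adjusted p = 0.113). These are 2 of 4 tested members, where 27.1% of all variants were called, 66 higher and 13 lower. The filter was passed by row 25 only through the KO weaning libraries, as given above. Rows 22 and 27 gave -0.36 ± 0.94 (edgeR, adjusted p = 0.893) and -1.65 ± 1.26 (edgeR, adjusted p = 0.366), and row 27 gave -3.66 without library 11 (adjusted p = 0.0489).

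In WT mice 0 of the 4 members were called between weaning and co-housing by edgeR, where 0.685% of all variants were called. At an unadjusted p under 0.05 they were also 0 of 4, against 96 of all 292 variants. Row 26 averaged 0.401% ± 0.268 in co-housed WT and 0.762% ± 0.275 in weaning WT (SD, n = 5 each; log2 fold change -1.21 ± 1.38, edgeR, adjusted p = 0.563). Row 25 gave 0.65 ± 0.33 (edgeR, adjusted p = 0.163), from 7 reads in 1 library. Row 22 gave -1.42 ± 0.95 (edgeR, adjusted p = 0.305), and passed when only these 2 groups entered the fit (-1.74, adjusted p = 0.00934) or without libraries 1, 5, 11 and 19 (-1.69, adjusted p = 0.0289), while its genus passed as given above.

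The difference between genotypes itself changed from weaning to co-housing for rows 25 and 26. The interaction was -7.39 ± 1.82 for row 25 (edgeR, adjusted p = 0.00853) and 5.98 ± 1.40 for row 26 (edgeR, adjusted p = 0.00521), where 6.16% of the 292 variants were called. The row 26 result was called in all 28 alternatives. The row 25 result was -5.06 without library 1 (adjusted p = 0.0754) and -5.56 without libraries 1, 5, 11 and 19 (adjusted p = 0.128). Its WT side rests on 7 reads in co-housed library 20, and it could not be estimated without that library. Here too row 25 passed the filter only through the KO weaning libraries. Rows 22 and 27 gave 1.06 ± 1.32 (edgeR, adjusted p = 0.807) and -0.44 ± 1.72 (edgeR, adjusted p = 1.00).

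Because the level of the family varied between libraries, row 26 was also set against the leading variant of the same library. Per 100 reads of row 22, row 26 had 0 reads in KO weaning libraries 2 to 5, which allows at most 0.0402, 0.0581, 0.0330 and 0.262, and library 1 had no row 22. WT weaning libraries had 2.05, 2.76, 2.24, 4.27 and 1.26 reads of row 26 per 100. Each WT ratio was above every KO limit, although KO library 3 held row 22 within the WT range. After co-housing the ratio was 1.19, 0, 0.378, 2.29 and 3.00 in KO libraries, against 1.75, 1.69, 3.01, 3.60 and 1.97 in WT libraries. In KO library 12, 1012 reads of row 22 came with 0 of row 26, which allows at most 0.296 per 100. The ratio averaged 2.40 ± 0.854 in co-housed WT and 2.52 ± 1.12 in weaning WT (SD, n = 5 each), a difference below the spread between libraries.

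**Figure D4:**
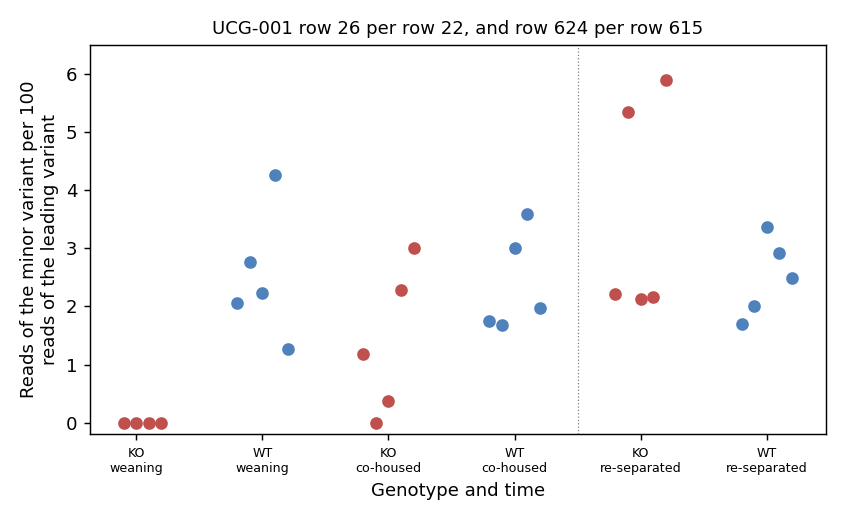
Reads of the minor UCG-001 variant per 100 reads of the leading one in each library (row 26 per row 22 at weaning and after co-housing, row 624 per row 615 after re-separation), KO left of WT; library 1 has no row 22 and no point, and the dotted line parts the library sets. KO weaning libraries 2 to 5 lie at 0, WT weaning libraries between 1.26 and 4.27, and the groups overlap at the later times.

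Within the family's reads the leading variant held 79.9% to 93.5% in KO weaning libraries 2 to 5, against 89.8% to 96.5% in WT weaning libraries. Row 25 held 2.09%, 3.02%, 0.781% and 4.95% of family reads in libraries 2 to 5 and 99.9% in library 1. After co-housing it did not exceed 0.654% in any KO library.

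The re-separation set had 4 members, of which 3 passed the filter. Row 615, the leading UCG-001 variant, made up 19.6%, 16.7%, 15.8%, 17.0% and 11.6% in KO libraries, against 22.8%, 27.0%, 16.3%, 13.0% and 24.1% in WT libraries. The ranges overlapped (log2 fold change -0.31 ± 0.33, edgeR, adjusted p = 0.732). Row 624, a minor UCG-001 variant, made up 0.432%, 0.893%, 0.336%, 0.366% and 0.687% in KO libraries, against 0.389%, 0.543%, 0.549%, 0.379% and 0.599% in WT libraries. It was found in all 10 libraries at like levels (0.543% ± 0.240 in KO and 0.492% ± 0.101 in WT, log2 fold change 0.08 ± 0.40, edgeR, adjusted p = 0.926).

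Row 624 carries the same taxon label as row 26 and had 2.21, 5.34, 2.12, 2.16 and 5.90 reads per 100 of row 615 in KO libraries, against 1.70, 2.01, 3.37, 2.91 and 2.48 in WT libraries. Without sequences the files do not show whether rows 624 and 26 are the same organism. Row 627, the Alloprevotella variant of this set, gave -0.44 ± 0.76 (edgeR, adjusted p = 0.781). None of the 3 members was called by edgeR, DESeq2 or limma-voom or had an unadjusted p under 0.05, where 1.44% of the 278 variants were called.

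The other 4 members were too rare to test. Row 623, with the label of row 25, had 0 reads in the 5 KO re-separation libraries, which allows at most 0.00472% to 0.00565%, against 11 reads (0.0149%) in WT library 26, 635 reads (1.38%) in WT library 27 and 0 in the other 3 WT libraries. Row 24 had 2 reads in library 5, row 38 had 4 reads in library 19 and row 493 had 4 reads in library 11.

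Other Bacteroidales families gave the following counts in the same tests. At weaning 2 of their 75 tested variants were higher and 14 lower in KO, with 6 of the 14 in Muribaculaceae, 4 in Rikenellaceae and 3 in Marinifilaceae. After co-housing 0 of 75 were called between genotypes by edgeR (12 at an unadjusted p under 0.05), 0 by DESeq2 and 1 by limma-voom. After re-separation 0 of 88 were called by edgeR (12 at an unadjusted p under 0.05), 8 by DESeq2 and 4 by limma-voom. Between weaning and co-housing in KO, edgeR called 9 higher and 9 lower, DESeq2 called 19 and limma-voom 7, with a median log2 fold change of -0.89 over the 75. In WT edgeR called 1 higher and 1 lower, DESeq2 called 8 and limma-voom 11, with a median of -1.33. The median log2 fold change at weaning was -0.71 over the 4 Prevotellaceae variants, -0.96 over the 75 others and -0.14 over all 292 variants tested.

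The genera whose shares were most like that of UCG-001 over the 20 weaning and co-housing libraries were an unnamed genus-level group of Muribaculaceae (Spearman rho 0.747), Parasutterella (0.687) and Bacteroides (0.641). Over the 10 re-separation libraries the values were 0.370, 0.467 and 0.394. Taken as deviations from the group means in the 20 libraries they were 0.379, 0.287 and 0.180. Alloprevotella had 0.517 over the 20 libraries, 0.867 over the 10 and 0.325 as deviations. The points share groups, times and a fixed total per library, so the values are descriptions only.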

How the data were processed

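Stool bacteria were measured by 16S rRNA amplicon sequencing (V4 region, paired ends) in 30 libraries, per the labels' protocols. The values the authors deposited are raw counts (whole numbers of reads) for each variant in each library, with a taxon label. The table's name points to DADA2. The DADA2 version and settings, the reference taxonomy and whether low counts were removed were not given in the sources used here. R 4.5.1 and limma are listed, with no role, per the submitters' processing notes.

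Shares are percent of reads without the 4 rows named mitochondria. Counts were summed by genus and family and tested with edgeR 4.0.16 (R 4.3.3; glmQLFit, robust, TMMwsp factors, prior count 2), with 1 coefficient per group. Variants were tested within each library set, and genera and families over all 30 libraries. Features needed 10 reads in 3 libraries. Benjamini-Hochberg adjustment ran over all features of a level. The test was run on simulated data first. Alternatives were other scaling, filters, DESeq2 1.42.0, limma-voom (limma 3.58.1), fewer samples and leaving out libraries. Where a group had 0 reads, folds are bounds against 3 reads per library. Reads are PCR products without molecular identifiers, so intervals and limits cover counting error only. Shares, exact permutation tests and plots used Python 3.11.15 with matplotlib 3.10.9, scipy 1.17.1, numpy 2.4.6 and pandas 2.3.3.

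All Prevotellaceae genera are named, with each variant past the threshold and the 6 highest by mean share in each set. Rarer members are named too, after their values were seen. The members and lists were chosen with earlier results of these data known.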

Additional observations from a re-analysis of the deposited data

Results flagged for a closer look

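Single libraries far from the other 4 of their group were found 7 times, by a gap test with a critical value of 0.71. Chance passes this value in about 1 of 20 groups if shares are normally spread, which groups with libraries at 0 are not. The 7 count Alloprevotella and row 27 separately, and the number of groups looked at is not given, so 7 cannot be set against that rate. Row 25 was 16.2% in KO weaning library 1, where the next library had 0.999%. Alloprevotella, and with it row 27, was 0.0189% in the same library, where the nearest had 1.67%, and 1.73% in co-housed KO library 11, where the nearest had 0.317%. Row 25 was 0.0203% in co-housed WT library 20 and at 0 reads in the other 4 libraries of that group, where the gap test passes by construction. Row 623 was 1.38% in re-separated WT library 27, where the next had 0.0149%. The difference between KO and WT changed from weaning to co-housing for row 25 (-7.39, edgeR, adjusted p = 0.00853) and for row 26 (5.98, edgeR, adjusted p = 0.00521), by the interaction term. The first missed the threshold without library 1, and row 25 passed the filter only through the KO weaning libraries, as given above. The WT side of the first rests on 7 reads in library 20.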

How the results depend on the processing

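Over 63 results and 1183 alternative values, 1088 kept their direction and their side of the threshold or, for counts of calls, an equal or similar count. DESeq2 called 1 Prevotellaceae variant in place of 2 at weaning, between weaning and co-housing in KO and for the interaction. It gave no adjusted p for row 25, for a reason that was not looked into, and so neither called nor rejected that row. The interaction count was also 1 without libraries 1, 5, 11 and 19, and in WT 1 variant in place of 0 passed between weaning and co-housing without these 4 or with only the groups compared. Of genera, limma-voom called 1 in place of 0 at weaning. Without filter 1 in place of 0 was called for co-housing against weaning and for re-separation against co-housing in KO. Without the 4 libraries 2 were called in each of these, 2 in place of 1 for co-housing against weaning in WT, and 1 in place of 0 for re-separation against co-housing in WT. With only the groups compared, 1 in place of 0 passed for re-separation against weaning in WT. The family's difference in share at weaning, -10.1 percentage points, had an unadjusted exact permutation p = 0.0476, against 0.0325 unadjusted and 0.0813 adjusted over families with edgeR.

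Counts over all variants, which set the background, moved more with the tool. At weaning edgeR called 61, DESeq2 49 and limma-voom 36, and after co-housing 3, 2 and 13. Between weaning and co-housing in KO they called 79, 54 and 39. In WT edgeR called 2, DESeq2 25 and limma-voom 56, and after re-separation they called 4, 18 and 22. The interaction gave 18 with edgeR, 23 with DESeq2 and 9 with limma-voom. With library size as the scaling 27 genera were called at weaning (17 higher and 10 lower in KO), against 6 higher and 11 lower otherwise.

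Leaving out 1 library gave 1 to 3 variants between weaning and co-housing in KO and 1 to 2 for the interaction. It gave 0 to 1 genera at weaning, for co-housing against weaning in KO and for re-separation against co-housing in KO, and 1 to 2 for co-housing against weaning in WT. Without library 20 the row 25 interaction could not be estimated, since both WT groups then had 0 reads.

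Signs turned in 47 values of 18 results, none of them called, with 0.325 the lowest adjusted p on the turned side; the cause was not tested. For KO against WT at weaning, row 27 gave 0.18 (library size), 0.078 (only the groups compared) and 0.24 (without the 4 libraries), and Alloprevotella 0.19 (library size) and 0.034 (without the 4). After co-housing row 22 gave 0.22 with DESeq2 size factors and 0.22 with the DESeq2 test. After re-separation, without filter, Alloprevotella gave 0.16 and UCG-001 0.048. With limma-voom row 22 gave 2.17 for co-housing against weaning in KO, UCG-001 0.081 for re-separation against weaning in KO, and the interactions of row 27 and Alloprevotella 0.13 and 0.26. For re-separation against weaning, Alloprevotella gave -0.26 (library size) and -0.23 (without the 4) in KO and 0.37 (library size) and 0.049 (only the groups compared) in WT.

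Leaving out 1 library gave, for KO against WT at weaning, -0.59 to 0.22 (row 27) and -0.76 to 0.067 (Alloprevotella). After co-housing it gave -1.06 to 0.012 (family), -0.71 to 0.067 (UCG-001), -2.72 to 0.24 (Alloprevotella), -0.65 to 0.21 (row 22) and -2.67 to 0.39 (row 27). After re-separation it gave -0.41 to 0.061 (family), -0.33 to 0.088 (UCG-001), -0.79 to 0.68 (Alloprevotella), -0.10 to 0.18 (row 624) and -1.01 to 0.36 (row 627). For co-housing against weaning in KO row 22 gave -0.88 to 0.093, and the interactions gave -2.47 to 0.61 (row 27) and -2.32 to 0.64 (Alloprevotella). For re-separation against weaning it gave -0.28 to 0.45 (UCG-001, KO), -0.47 to 0.59 (Alloprevotella, KO) and -0.85 to 0.34 (Alloprevotella, WT). No paired analysis was possible because the groups share no replicate numbers. Depth limits row 25 after co-housing, at 5 to 8 reads, and sets the limits for groups at 0.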
